A study of Mus musculus with 6 samples.

Results

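The 10 genes of class I antigen processing were followed in 4T1 mouse mammary carcinoma cells given the kinase inhibitor TKI258 or its vehicle: the immunoproteasome subunit genes Psmb8, Psmb9 and Psmb10, the proteasome activator genes Psme1 and Psme2, the peptide transporter genes Tap1 and Tap2, the tapasin gene Tapbp, the class I light chain gene B2m and the trimming peptidase gene Erap1. They were taken by name from 19938 genes, each represented by its brightest probe set among those with 1 annotated symbol, and 10 of 10 were found, each with 1 such probe set. The tested cultures received 500 nM TKI258 for 16 h (3 dishes) and the vehicle cultures received DMSO for the same 16 h (3 dishes). In both groups 750000 cells had been plated per 10 cm dish in medium with 10% serum, and the medium was renewed, with the same serum, when treatment began. TKI258, also called dovitinib, blocks the FGF, VEGF and PDGF receptor kinases. All 6 dishes held this 1 tumour line, which comes from BALB/c mice, and the titles call the dishes of a group biological replicates. The effect of the inhibitor on these transcripts is what the comparison measures.

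Class I molecules show peptides from inside the cell to CD8 T cells. Proteasomes cut proteins into peptides, the TAP transporter carries these into the endoplasmic reticulum, peptidases there trim them, and tapasin holds the empty class I molecule, a heavy chain with beta-2 microglobulin, next to the transporter until a peptide fits. Interferons raise most of these genes together and add the immunosubunits, which replace the constitutive catalytic subunits when new proteasomes are assembled. Tumour cells often express the pathway weakly, which limits their recognition.

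After TKI258 all 10 genes were higher than after DMSO, in every TKI258 array against every DMSO array. Tap2 and Tapbp rose most, by 1.54 and 1.50 on the log2 scale, and B2m least, by 0.31. At an adjusted p below 0.05 in limma (Benjamini-Hochberg over all 19938 genes), 10 of 10 rose and 0 fell, where 14.4% of all genes rose. Their groups did not overlap in 10 of 10 genes, against 21.4% of all genes with every TKI258 array above every DMSO array. The median log2 change of the 10 was 1.01, and of all genes it was 0.01. A log2 change of at least 1 among the genes that rose was seen in 5 of the 10 (Tap2, Tapbp, Psmb8, Psme2 and Tap1) and in 1.45% of all genes. The genes were chosen with earlier results of these data known, so these shares describe the list and do not test it. Centring each array on the median of its 19938 genes lowered every log2 change by 0.107. That is more than the median change of 0.01, so the median change over all genes was then below 0. The 10 genes then lay between 0.21 and 1.43, all past the threshold. Under this centring the split over all genes moved to 9.88% higher (1970) and 21.6% lower (4300). Cultures were measured in bulk, so a change in every cell and a change in the share of high cells cannot be told apart.

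**Figure D1:**
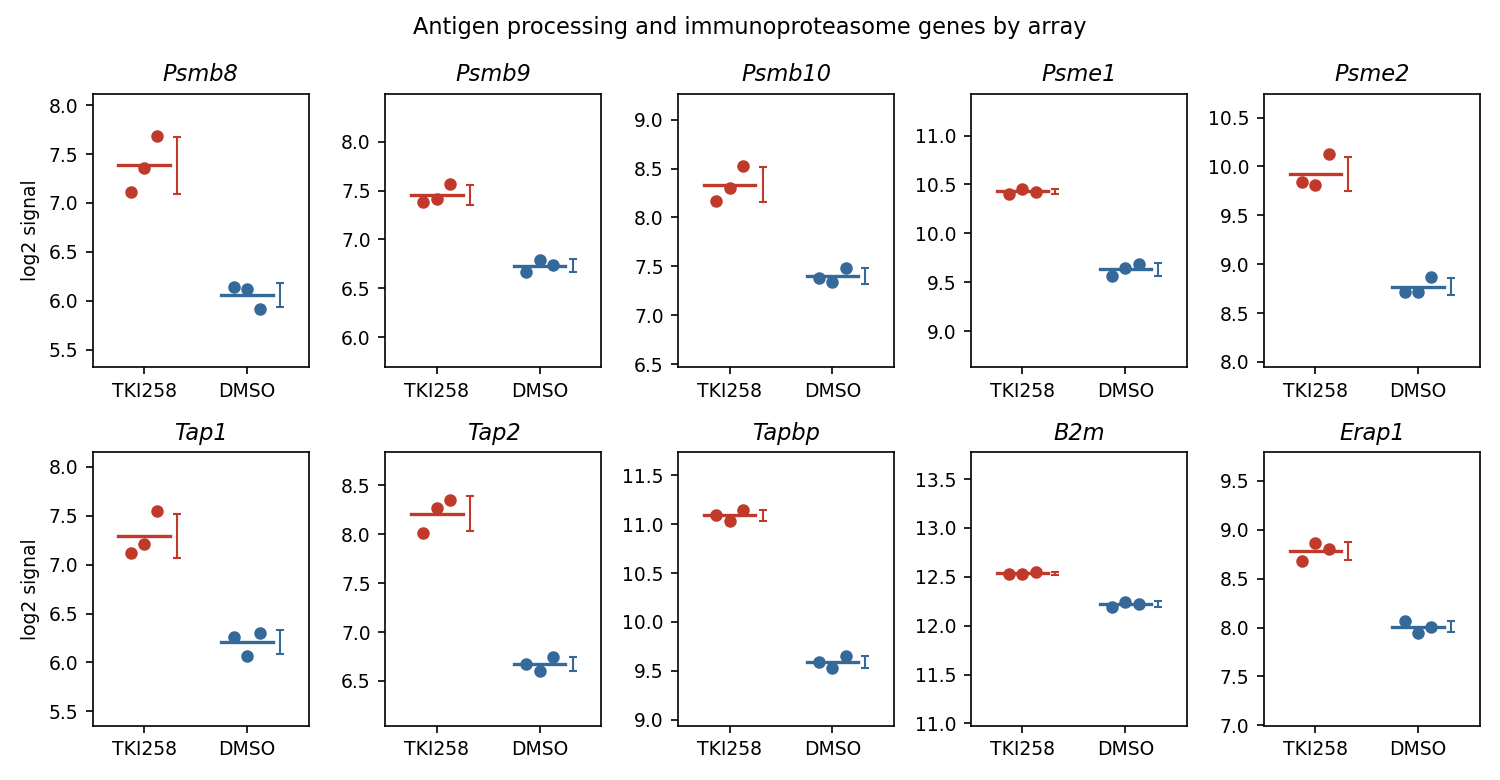
Log2 signal (vertical axis, the same span in each panel) of the 10 genes in the 3 TKI258 and 3 DMSO arrays, with a point per array, a line at the group mean and a bar of ± 1 SD beside it. In each panel the TKI258 points lie above all DMSO points, with the narrowest gap in B2m, at means of 12.53 and 12.22.

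The genes lie on 5 chromosomes, and Psmb9, Tap1, Psmb8 and Tap2 follow one another in that order on mouse chromosome 17, with Tapbp elsewhere on the same chromosome, in RefSeq's annotation of GRCm38.p6. All 4 of this run rose, whereas the class II gene H2-Ob, next after Tap2, had a log2 change of 0.00 (adjusted p = 0.989). H2-Ob was dim, with a mean signal of 4.41 in each group, below the median of all probe sets at 5.01. The gene on the other side, H2-DMb1, had no probe set of its own. RefSeq's promoter windows of GRCm38.p6, from 250 bases before to 50 bases after each start, were at hand for 9 of the 10 genes. Tap2 is not among them. The stretch between the starts of Tap1 and Psmb9, which are read in opposite directions, is printed because both genes rose, and those before B2m and Psmb8 because they hold a match to an interferon-linked motif, given in capitals. The first runs over chr17:34187331-34187555 on the plus strand, that of B2m over chr2:122147437-122147686 on the plus strand and that of Psmb8 over chr17:34197945-34198194 on the plus strand.
Tap1-Psmb9: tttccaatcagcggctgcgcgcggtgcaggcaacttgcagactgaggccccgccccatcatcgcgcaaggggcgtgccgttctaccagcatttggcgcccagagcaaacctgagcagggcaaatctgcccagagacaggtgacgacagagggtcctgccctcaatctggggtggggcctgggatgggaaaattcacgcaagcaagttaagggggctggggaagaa
B2m: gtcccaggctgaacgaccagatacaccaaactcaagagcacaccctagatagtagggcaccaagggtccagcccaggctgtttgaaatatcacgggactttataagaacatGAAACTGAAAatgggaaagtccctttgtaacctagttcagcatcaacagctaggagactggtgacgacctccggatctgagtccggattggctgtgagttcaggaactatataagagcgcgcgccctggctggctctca
Psmb8: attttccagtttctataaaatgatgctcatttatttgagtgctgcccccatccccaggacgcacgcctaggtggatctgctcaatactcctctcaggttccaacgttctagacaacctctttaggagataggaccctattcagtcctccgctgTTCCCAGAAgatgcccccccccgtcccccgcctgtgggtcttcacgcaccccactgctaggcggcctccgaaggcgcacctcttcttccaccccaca

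The capitals mark the IRF element (GAAA, any 2 bases, GAAA) and the GAS element TTCNNNGAA, searched on both strands. The IRF element, bound by interferon regulatory factors, was in the windows of 3 of the 9 genes (B2m, Psme1 and Erap1) and of 3.99% of 27025 genes with a window. In B2m it lay at bases -139 to -130 from the start, in Erap1 at -4 to 6 and in Psme1 at 10 to 19, counted with no base 0. The GAS element, bound by STAT dimers, was in 1 of 9 (Psmb8, at -97 to -89) and in 9.55% of genes. The NF-kB site (GGG, any 5 bases, CC) was in 5 of 9 (Tap1, Psmb9, B2m, Psme1 and Psme2) and in 53.5% of genes, with overlapping matches counted once per gene. The CCAAT box CCAAT was in 4 of 9 (Tap1, Psmb9, Tapbp and B2m) and in 41.1%. The windows of Tap1 and Psmb9 overlap, so their CCAAT match is the same box, and some of their NF-kB matches are the same letters, counted for both genes. The stretch between Tap1 and Psmb9 holds neither the IRF nor the GAS letters. These are matches of letters only, in the reference strain rather than in 4T1.

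The immunoproteasome subunit genes encode the interferon-induced catalytic subunits of the 20S core. Psmb8, which takes the place of Psmb5, had a log2 signal of 7.11, 7.36 and 7.68 in TKI258 arrays and 6.14, 6.12 and 5.92 in DMSO arrays. The lowest TKI258 value was well above the highest DMSO value. Its mean was 7.38 ± 0.29 after TKI258 and 6.05 ± 0.12 after DMSO (SD, n = 3 arrays each), a log2 change of 1.33 (SE 0.13, adjusted p = 0.000101 in limma). Psmb10, which replaces Psmb7, had 8.17, 8.30 and 8.53 in TKI258 arrays and 7.38, 7.34 and 7.49 in DMSO arrays. The TKI258 arrays were spread more widely than the DMSO arrays and did not overlap with them. The log2 change of Psmb10 was 0.94 (SE 0.10, adjusted p = 0.000107 in limma). Psmb9, which replaces Psmb6, had 7.38, 7.41 and 7.57 in TKI258 arrays and 6.66, 6.79 and 6.74 in DMSO arrays, and its log2 change was 0.72 (SE 0.07, adjusted p = 0.00011 in limma). Both groups of Psmb9 were tight, and the gap between them was wider than either.

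The constitutive partners of these 3 genes did not pass the test. Psmb5 had a log2 change of 0.02 (95% interval -0.21 to 0.25), Psmb6 of -0.14 (-0.31 to 0.04) and Psmb7 of -0.12 (-0.28 to 0.04), with limma's adjusted p at 0.927, 0.249 and 0.288. With median centring Psmb6 and Psmb7 passed as lower, at -0.24 and -0.22. The log2 ratio of Psmb8 to Psmb5 in each array, set to 0 at its DMSO mean, was 1.24, 1.28 and 1.41 in TKI258 arrays and 0.09, 0.14 and -0.23 in DMSO arrays. The mean difference was 1.31, a 2.48-fold higher ratio after TKI258. For Psmb10 to Psmb7 the difference was 1.05, with 0.98 to 1.14 in TKI258 arrays and -0.07 to 0.06 in DMSO arrays. For Psmb9 to Psmb6 it was 0.86, with 0.84 to 0.88 in TKI258 arrays and -0.10 to 0.13 in DMSO arrays. In all 3 pairs the groups were apart, and each exact two-sided permutation test gave p = 0.1 (0.1 adjusted over the 3 pairs), the smallest p that 3 arrays against 3 allow. A ratio within an array shows that the pair changed unequally, not that either subunit stayed constant.

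**Figure D2:**
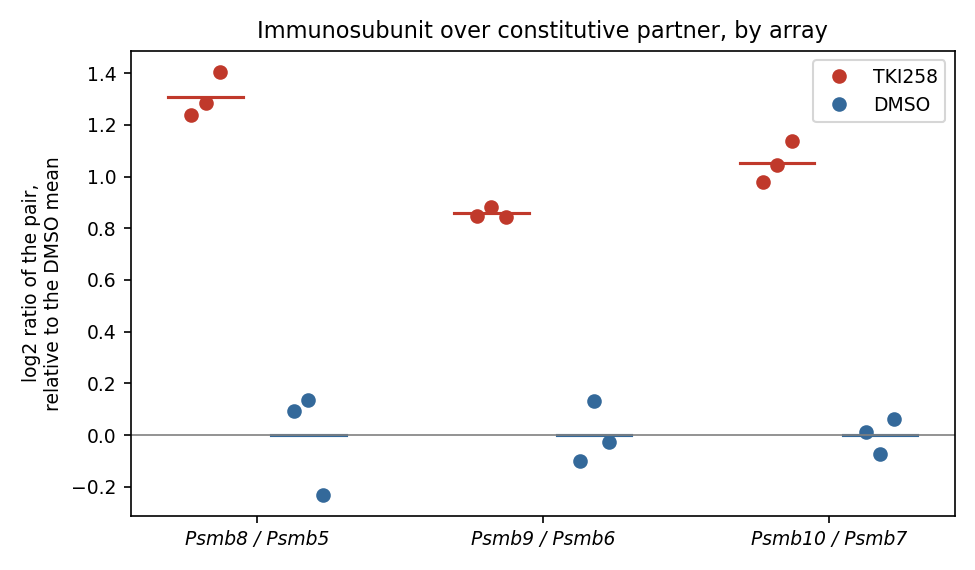
Log2 ratio of each immunosubunit gene to its constitutive partner gene in each array (vertical axis), with the mean of the DMSO arrays set to 0, for 3 pairs (horizontal axis). Points are arrays and lines are group means. TKI258 arrays lie at 0.84 or higher in every pair and DMSO arrays at 0.14 or lower.

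Of the whole constitutive 20S core, the 14 alpha and beta subunit genes of the standard particle, 0 rose and 1 fell, where 12.6% of all genes fell, and the median log2 change was -0.13. The alpha subunit gene Psma3 fell by 0.28 (SE 0.08, adjusted p = 0.034 in limma). That call was lost without TKI258 replicate 1 or 2, or without any one DMSO array (adjusted p from 0.0694 to 0.0982), so 0 then fell, and without TKI258 replicate 3 the count was 2. With median centring 8 of 14 fell and 0 rose, where 21.6% of all genes fell. The tissue-specific subunit genes Psma8 and Psmb11, of testis and thymus, had log2 changes of -0.03 and -0.24, and Psmb11 fell (adjusted p = 0.0182 in limma). Psma8 had means of 3.72 after TKI258 and 3.75 after DMSO, and Psmb11 of 4.28 and 4.52. Both genes were dimmer than the median probe set, at 5.01.

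Psme1 and Psme2 encode the alpha and beta chains of the interferon-induced activator ring that opens the end of the 20S core. Psme2 had a log2 signal of 9.84, 9.81 and 10.13 in TKI258 arrays and 8.72, 8.72 and 8.87 in DMSO arrays. The lowest TKI258 array of Psme2 was far above the highest DMSO array. Its log2 change was 1.16 (SE 0.09, adjusted p = 3.2e-05 in limma). Psme1 had 10.40, 10.46 and 10.43 in TKI258 arrays and 9.56, 9.64 and 9.69 in DMSO arrays. Replicates of Psme1 lay close together in each group, and its log2 change was 0.80 (SE 0.06, adjusted p = 2.8e-05 in limma). Of 8 genes for other activators and assembly factors 4 fell and 0 rose, where 12.6% of all genes fell. With median centring 5 of 8 fell, where 21.6% of all genes fell, and against a fold of 1.2 none was called. Psme3, the chain of the related nuclear activator, fell by 0.46 (SE 0.06, adjusted p = 0.000625 in limma). The assembly chaperone genes Psmg2 and Psmg1 fell by 0.40 and 0.35, and Pomp, the maturation factor of new 20S cores, by 0.24 (adjusted p = 0.0387). The call of Pomp was lost without any single array other than TKI258 replicate 3 (adjusted p from 0.084 to 0.129). The assembly factor gene Psmg3 had a log2 change of 0.10 and the inhibitor gene Psmf1 of -0.15, and these did not pass.

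Tap1 and Tap2 encode the chains of the peptide transporter. Tap2 had a log2 signal of 8.01, 8.27 and 8.35 in TKI258 arrays and 6.68, 6.60 and 6.74 in DMSO arrays. Its groups were the farthest apart of the 10 genes by mean, 8.21 ± 0.18 after TKI258 and 6.67 ± 0.07 after DMSO (SD, n = 3 arrays each). The log2 change of 1.54 (SE 0.09, adjusted p = 6.71e-06 in limma) is a 2.90-fold higher signal, the 87th largest rise of all genes. Tap1 had 7.12, 7.21 and 7.55 in TKI258 arrays and 6.26, 6.07 and 6.31 in DMSO arrays, with a log2 change of 1.08 (SE 0.11, adjusted p = 0.00013 in limma). TKI258 replicate 3 was the highest array for both transporter genes. Psmb9, read from the other side of the stretch it shares with Tap1, had a 95% interval of 0.55 to 0.89, and that of Tap1 was 0.82 to 1.34.

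Tapbp encodes tapasin, the bridge between transporter and class I molecule. It had a log2 signal of 11.09, 11.04 and 11.14 in TKI258 arrays and 9.59, 9.53 and 9.65 in DMSO arrays. The arrays of each group lay close together and the groups far apart, with means of 11.09 ± 0.05 after TKI258 and 9.59 ± 0.06 after DMSO (SD, n = 3 arrays each). The log2 change was 1.50 (SE 0.07, adjusted p = 1.43e-06 in limma), a 2.84-fold higher signal. Of the 5 other loading partner genes, Tapbpl alone passed. It encodes the tapasin-related peptide editor, which works without the transporter, and it rose by 1.39 (SE 0.08, adjusted p = 5.37e-06), with means of 7.17 ± 0.14 after TKI258 and 5.78 ± 0.04 after DMSO (SD, n = 3 arrays each). The general chaperone genes of the endoplasmic reticulum in that list did not pass, with Calr (calreticulin) at -0.18, Uggt1 at -0.12, Pdia3 at -0.12 and Canx (calnexin) at -0.05. Under median centring Calr, Pdia3 and Uggt1 were called lower, so 1 rose and 3 fell.

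B2m encodes beta-2 microglobulin, the light chain shared by all class I molecules. It had a log2 signal of 12.52, 12.53 and 12.55 in TKI258 arrays and 12.19, 12.25 and 12.23 in DMSO arrays. The groups did not overlap, and the arrays of each lay close together. Its log2 change of 0.31 (SE 0.06, adjusted p = 0.00361 in limma) had a 95% interval of 0.18 to 0.45, which lay below the intervals of the other 9 genes. The probe set stood at the 99.8th percentile of all genes by mean signal. Against a minimum fold of 1.2 (limma's treat) the call of B2m was lost (adjusted p = 1), while those of the other 9 held.

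Erap1 encodes the aminopeptidase that trims peptides inside the endoplasmic reticulum. It had a log2 signal of 8.68, 8.87 and 8.81 in TKI258 arrays and 8.06, 7.95 and 8.01 in DMSO arrays, and the groups were well apart. The log2 change was 0.78 (SE 0.07, adjusted p = 6.31e-05 in limma). Of 7 measured peptidase genes that act on such peptides elsewhere in the cell, 0 rose and 2 fell, where 14.4% of all genes rose and 12.6% fell. Thop1, which breaks peptides down in the cytosol, fell by 0.58 (SE 0.09, adjusted p = 0.00129 in limma), and Lap3, a leucine aminopeptidase, by 0.40 (SE 0.07, adjusted p = 0.00206 in limma). Nrd1 had a log2 change of 0.15, Nln of 0.03, Blmh of -0.03 and Tpp2 of -0.12, and these did not pass.

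**Figure D3:**
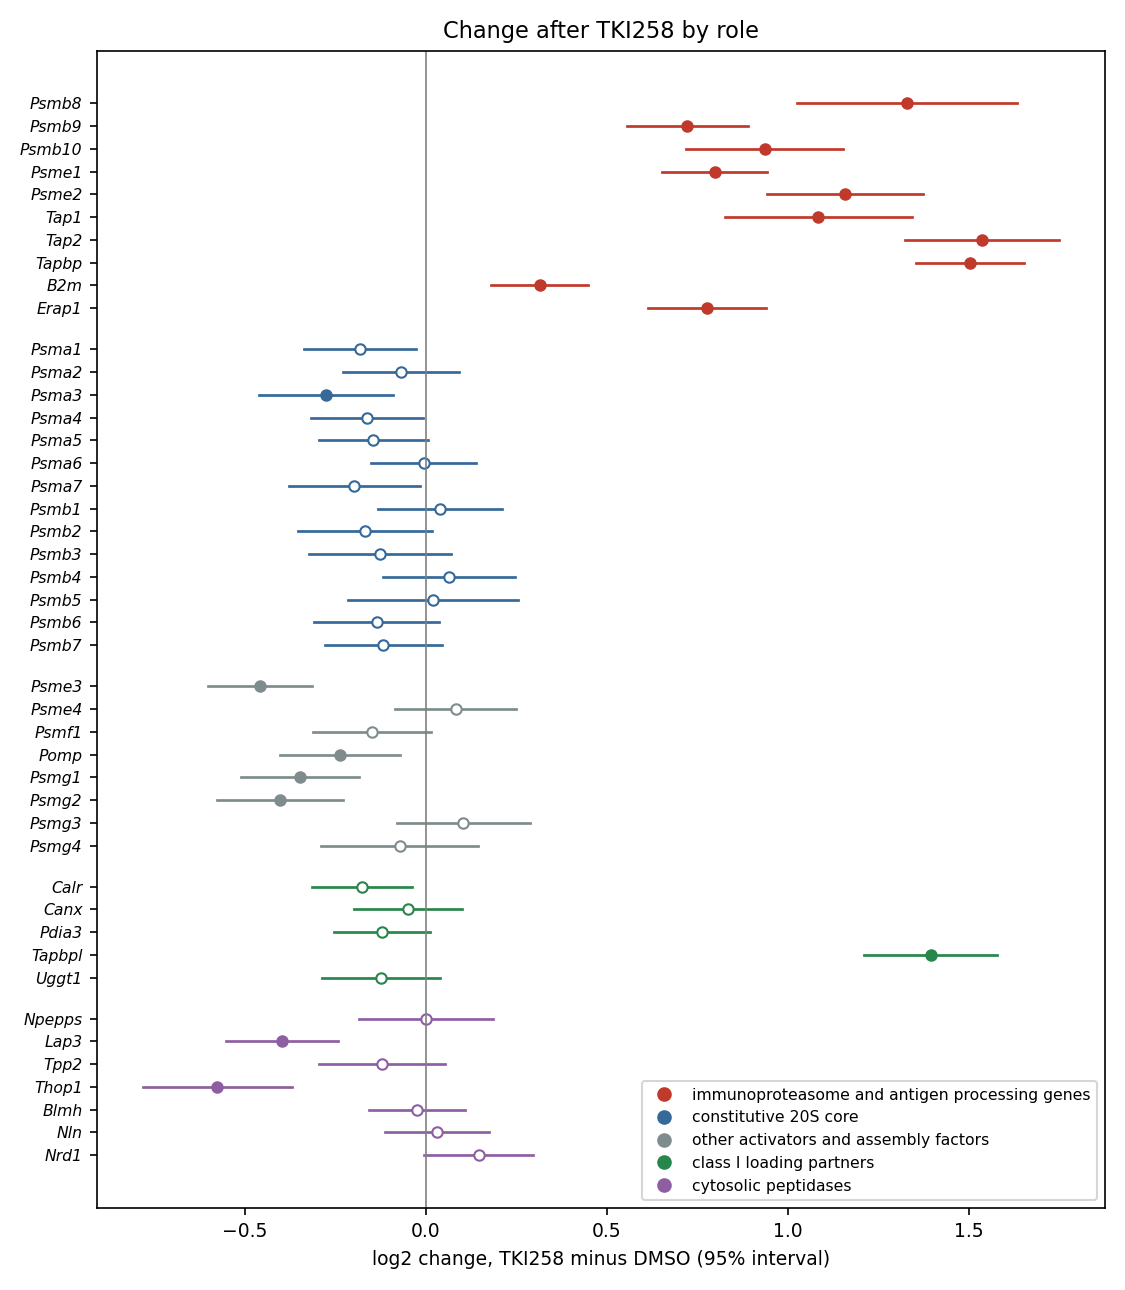
Log2 change, TKI258 minus DMSO (horizontal axis), with the 95% interval from limma for each gene (rows), grouped by role and coloured by group. Filled points passed an adjusted p of 0.05 and open points did not. The 10 genes at the top lie between 0.31 and 1.54, while the constitutive 20S core lies between -0.28 and 0.06 and Tapbpl, at 1.39, stands apart from the other loading partners.

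The 10 genes moved unevenly among the TKI258 arrays. TKI258 replicate 1 was the lowest of its group in 8 of the 10 genes and TKI258 replicate 3 the highest in 8. Among the DMSO arrays, replicate 3 was highest in 6 and replicate 2 lowest in 5. Leaving out any single array kept 10 of 10 as higher. The 5 genes outside the lists whose signal over the 6 arrays was most like the mean of the 10 were Hspb6, Zfp219, Ccng2, Ube2l6 and Lix1l, with Pearson correlations of 0.999 to 1.00. As the arrays fall into 2 groups, this likeness mostly reflects the difference between groups, and 346 genes (1.74%) had a correlation over 0.99. Their log2 changes were 0.91 for the small heat shock protein gene Hspb6, 0.39 for Zfp219, 0.94 for the cyclin G2 gene Ccng2, 1.82 for Ube2l6, the conjugating enzyme of the interferon-induced modifier ISG15, and 0.61 for Lix1l.

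Heavy chain genes of the class I family rose in 4 of 10 cases and fell in 0, where 14.4% of all genes rose, and their median log2 change was 0.29. The list held 21 names, and 11 of them, the classical H2-K1 and H2-D1 included, had no probe set of their own. H2-T24 rose by 1.11 (SE 0.10, adjusted p = 5.86e-05 in limma) and H2-Q4 by 0.95 (SE 0.07, adjusted p = 2.66e-05 in limma), both in class I gene clusters of near-identical copies that a probe set may not tell apart. Cd1d1, which presents lipids, rose by 1.39 (SE 0.13, adjusted p = 5.74e-05), with 7.25, 7.14 and 7.59 in TKI258 arrays and 6.09, 5.74 and 5.96 in DMSO arrays. Mr1, which presents vitamin B metabolites, rose by 1.32 (SE 0.08, adjusted p = 5.37e-06), with 8.66, 8.85 and 8.89 in TKI258 arrays and 7.49, 7.42 and 7.52 in DMSO arrays. The groups of both genes were clearly apart. H2-Bl had a log2 change of 0.28 (adjusted p = 0.0500452) and H2-T10 of 0.31 (adjusted p = 0.0917), and these 2 did not pass, nor did the other 4, which lay between -0.05 and 0.15. H2-Bl was dim, with a mean signal of 3.82 over the 6 arrays. Only 7 of the 10 measured heavy chain genes lay above the median of all probe sets, at 5.01.

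Class II genes, normally made by dendritic cells, B cells and macrophages, rose in 1 of 9 cases and fell in 0, a share near the 14.4% of all genes that rose. The invariant chain gene Cd74 rose by 1.37 (SE 0.15, adjusted p = 0.000186 in limma), with 6.09, 5.86 and 6.19 in TKI258 arrays and 4.76, 4.30 and 4.95 in DMSO arrays. All TKI258 arrays of Cd74 were above all DMSO arrays. The chain genes H2-Ab1 and H2-Eb1 had log2 changes of 0.25 and -0.06. H2-Oa had 0.20, the peptide editor gene H2-DMa 0.23 and the lysosomal reductase gene Ifi30 0.14. None of these genes passed. Of these, H2-Ab1 and H2-Oa had mean signals of 4.50 and 4.14 over the 6 arrays, below the median probe set at 5.01. Only 4 of the 9 class II genes lay above that median. Without TKI258 replicate 1 H2-DMa passed as well (adjusted p = 0.0496), which made the count 2 of 9.

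Regulators of interferon signalling and of class I and class II transcription rose in 11 of 25 measured cases and fell in 2, where 14.4% of all genes rose and 12.6% fell. With median centring 9 rose and 5 fell, where 9.88% of all genes rose and 21.6% fell. Irf1, a main activator of class I processing genes under interferon gamma, had a log2 signal of 8.91, 9.18 and 8.96 in TKI258 arrays and 7.65, 7.60 and 7.73 in DMSO arrays. It rose by 1.36 (SE 0.08, adjusted p = 7.11e-06 in limma), with a wide gap between the groups. Irf7 rose by 1.05, Stat2 by 1.03 and Irf9 by 0.98, all transcription factors of the interferon response. Rfx5, a subunit of the factor that sits on class I and class II promoters, rose by 0.77, while its partners Rfxap and Rfxank had -0.12 and 0.12 and did not pass.

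Among these 25 regulators, the interferon receptor and kinase genes rose in 6 of 7 cases, where 14.4% of all genes rose. The rises were 0.66 for Ifngr2, 0.61 for Ifnar2, 0.47 for Jak1, 0.36 for Tyk2, 0.28 for Ifnar1 and 0.28 for Jak2. Ifngr1, at 0.11, did not pass (adjusted p = 0.552 in limma). With median centring the calls of Ifnar1 and Jak2 were lost, at 0.18 and 0.17 (adjusted p = 0.0524 and 0.0795). Irf8, a factor of myeloid and lymphoid cells, fell by 1.09 (SE 0.12, adjusted p = 0.000142 in limma), with means of 5.98 ± 0.16 after TKI258 and 7.07 ± 0.21 after DMSO (SD, n = 3 arrays each). Ptpn2, a phosphatase that acts on JAK kinases and STAT factors, fell by 0.32 (adjusted p = 0.00431), but the mean of its 2 probe sets had a change of -0.13 and did not pass (adjusted p = 0.21). The feedback genes Socs1 and Socs3 had -0.05 and -0.07, and Usp18 had 0.36 (adjusted p = 0.0512), which passed without TKI258 replicate 1 (adjusted p = 0.0224). Irf2, Irf3 and Ciita, at -0.13, -0.12 and 0.16, did not pass either. With median centring Irf2, Irf3 and Rfxap passed as lower, at -0.23, -0.23 and -0.23 (adjusted p = 0.0242, 0.048 and 0.0262).

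Of the interferon genes, Ifng and Ifnb1 were listed, and neither passed. Ifng had a log2 signal of 3.43 to 3.66 in TKI258 arrays and 3.40 to 3.59 in DMSO arrays, with a log2 change of 0.02 (95% interval -0.17 to 0.21). Ifnb1 had 3.21 to 3.26 in TKI258 arrays and 3.21 to 3.23 in DMSO arrays, with a log2 change of 0.02 (95% interval -0.11 to 0.16). Both were dimmer than the median probe set, at 5.01, and the table has no detection calls.

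**Figure D4:**
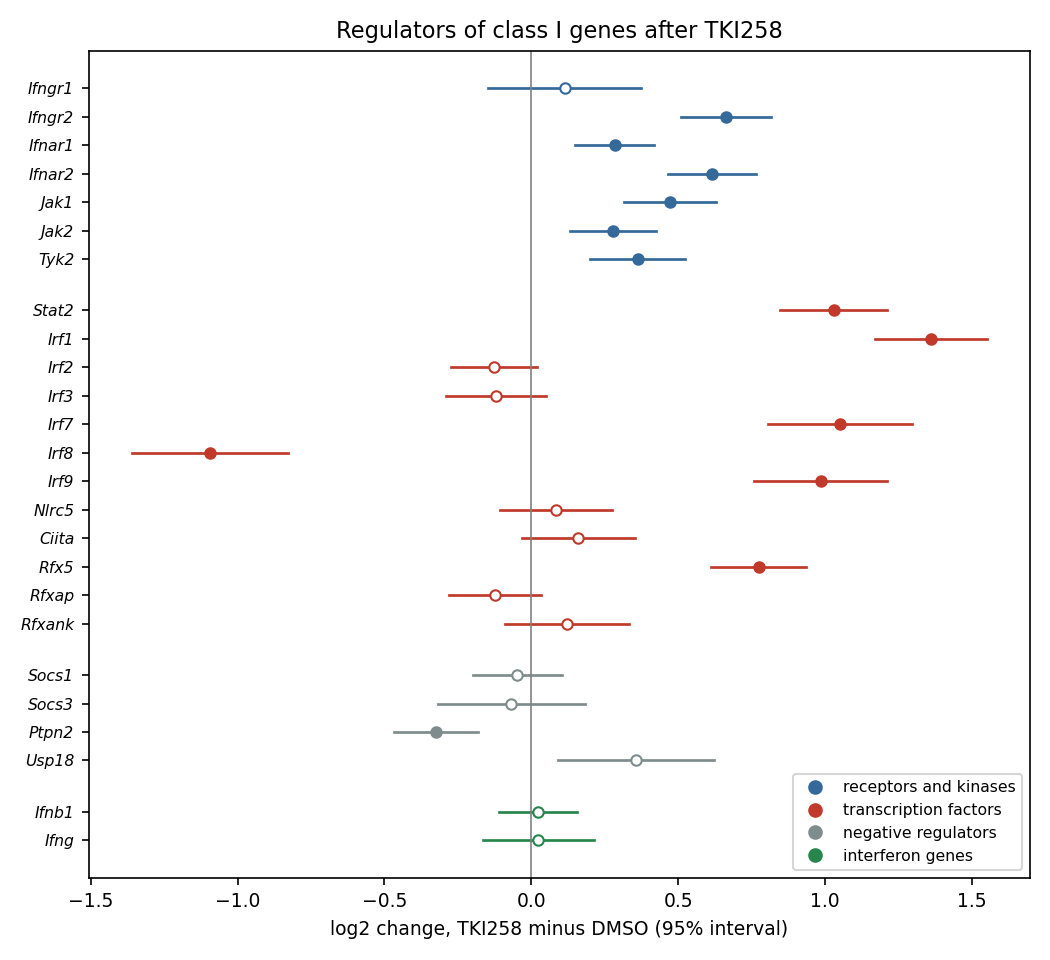
Log2 change, TKI258 minus DMSO (horizontal axis), with the 95% interval from limma, of 25 regulators (rows) coloured by role. Filled points passed an adjusted p of 0.05. Irf1 lies highest at 1.36 and Irf8 lowest at -1.09.

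Nlrc5, the class I transactivator that drives heavy chain, B2m, Tap1 and Psmb9 transcription, had different values by probe set. It has 19 probe sets with its symbol, of which the brightest had 8.41, 8.24 and 8.23 in TKI258 arrays and 8.07, 8.31 and 8.24 in DMSO arrays. These overlap, and the log2 change of 0.08 did not pass (adjusted p = 0.546). The second brightest had 7.86, 8.02 and 7.92 in TKI258 arrays and 7.28, 7.23 and 7.05 in DMSO arrays, with a log2 change of 0.75 (adjusted p = 0.00248 with all 35557 probe sets tested). Tested singly, 9 of the 19 were higher and 0 lower, where 2811 of all 35557 probe sets were higher and 2796 lower. The changes of the 19 ran from 0.08 to 0.75, with a median of 0.30. The mean of the 19 rose by 0.36 (SE 0.06, adjusted p = 0.00165 in limma), with 6.47, 6.51 and 6.51 in TKI258 arrays and 6.16, 6.16 and 6.10 in DMSO arrays. The look at single probe sets of Nlrc5 was chosen after its values were seen.

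**Figure D5:**
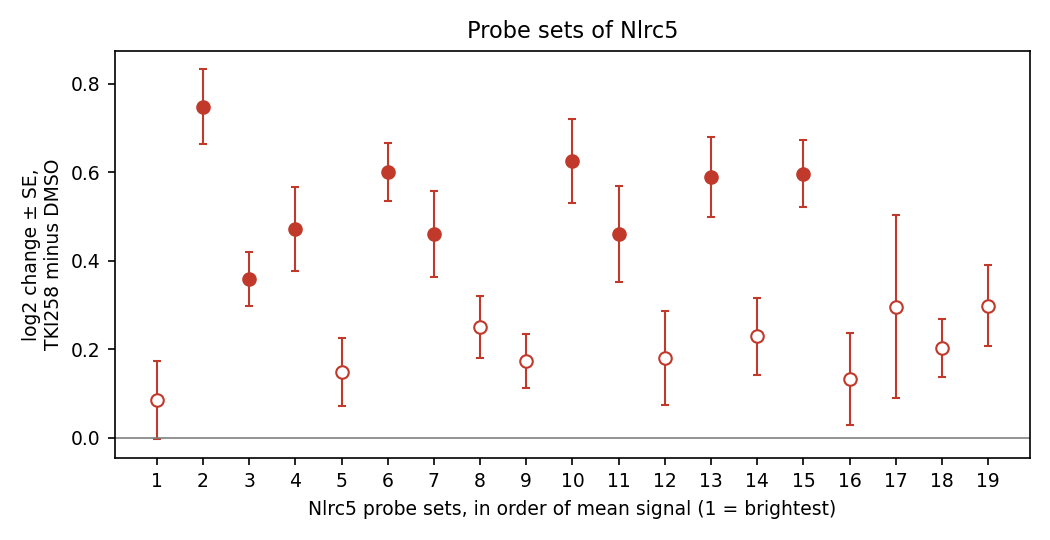
Log2 change, TKI258 minus DMSO, ± 1 SE from limma (vertical axis) for the 19 probe sets of Nlrc5 in order of mean signal (horizontal axis, 1 the brightest). Filled points passed an adjusted p of 0.05 over all probe sets. The brightest lies at 0.08, the second at 0.75, and none is below 0.

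Markers of other cells were looked at because leukocytes make immunosubunits without interferon. Of 17 leukocyte marker genes 1 rose and 0 fell, where 14.4% of all genes rose and 12.6% fell. Of the 17, 16 had a mean below the median of all probe sets in TKI258 arrays and 16 in DMSO arrays. The pan-leukocyte gene Ptprc, given as the defining marker, had a log2 signal of 3.68 to 3.84 in TKI258 arrays and 3.72 to 3.81 in DMSO arrays. The 1 that rose was Cd68, by 0.82 (SE 0.14, adjusted p = 0.00206 in limma), a lysosomal protein gene. The log2 of the summed leukocyte marker signal was 8.54 to 8.78 in TKI258 arrays and 8.28 to 8.32 in DMSO arrays. Without Cd68 it was 7.75 to 7.84 in TKI258 arrays and 7.69 to 7.76 in DMSO arrays, and these ranges overlap. Of 9 endothelial and fibroblast marker genes 1 rose (Dcn, by 2.01), where 14.4% of all genes rose, and 0 fell. Of the 9, 4 had a mean below the median of all probe sets in TKI258 arrays and 6 in DMSO arrays. Their log2 summed signal was 8.21 to 8.27 in TKI258 arrays and 7.92 to 7.99 in DMSO arrays. Without Dcn it was 7.89 to 8.02 in TKI258 arrays and 7.84 to 7.90 in DMSO arrays, which overlap as well. Both sums without 1 gene were added after the values were seen. The part of these markers in the rise of the 10 genes was not tested. Of 8 epithelial marker genes, which a mammary carcinoma line should express, 7 lay above that median in both groups. Of the 8, 3 rose (Krt14, Cdh1 and Krt19) and 2 fell (Krt18 and Krt7), where 14.4% of all genes rose and 12.6% fell. Krt8 did not pass, at 11.76 to 11.85 in TKI258 arrays and 11.86 to 12.00 in DMSO arrays.

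Over all genes, arrays of a group correlated at 0.997 to 0.998 and arrays of different groups at 0.9884 to 0.9896, and 27.0% of genes passed in either direction.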

How the data were processed

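The deposited table gives 35557 probe sets on 6 arrays. The submitters' processing notes name RMA, affy and limma, with no version or role. No label states the scale, and the deposited values were read as log2 signals from their range. Where RMA makes array distributions alike, a change common to most genes is lost. Array medians over all probe sets lay between 4.97 and 5.04, while median centring used each array's median over the 19938 genes. By GEO's platform annotation 21789 probe sets have 1 symbol, 1621 several and 12147 none. Those with 1 symbol gave 19938 genes, and the brightest probe set stood for each gene.

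Arrays were grouped by title. TKI258 was set against DMSO with lmFit and eBayes of limma 3.58.1 in R 4.3.3, treatment being the only term, two-sided, with Benjamini-Hochberg adjustment over all genes, a threshold of 0.05 and no filter. Standard errors and 95% intervals come from that fit. The number of arrays limits the precision, and p-values measure the spread between dishes of 1 line. The test was checked on simulated data. Named were the 10 genes, their 3 partners, all measured regulators, up to 6 genes of each other list by smallest adjusted p, any group of 5 or fewer, chromosomal neighbours and the 5 genes most like the 10. The genes, lists and tests were chosen with earlier results of these data known. One listed name, Emr1, was updated to Adgre1 through the RefSeq gene table of GRCm38.p6. Other settings were the replicate number as a block, leaving out single arrays, quantile normalization run again, centring on array medians, dropping dim genes, averaging probe sets, a trended robust eBayes, weighted arrays, a threshold of 0.01 and limma's treat at a fold of 1.2. An item withheld from this work is not reported here.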

Additional observations from a re-analysis of the deposited data

Results flagged for a closer look

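Probe sets that carry several symbols stood outside the comparison of genes, and no gene is named from them. Of 7 such probe sets annotated to class I heavy chain genes, 6 were higher after TKI258 than after DMSO and 0 lower in limma. Over all 35557 probe sets 2811 were higher and 2796 lower, and 15.8% passed in either direction. The 7 were singled out because a difference from the DMSO arrays lay in data the comparison did not use. The 6 log2 changes were 1.12, 1.00, 0.61, 0.57, 0.35 and 0.34. The brightest of them had a log2 signal of 10.71, 10.71 and 10.94 in TKI258 arrays and 10.23, 10.17 and 10.26 in DMSO arrays (adjusted p = 0.00604), and the groups did not overlap. Of 3 probe sets that carry the symbol of 1 of the 10 genes beside that of another gene, 1 was higher, with a log2 change of 0.98 (SE 0.18, adjusted p = 0.0135 in limma), and the others had -0.05 and -0.06 and did not pass.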

How the results depend on the processing

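Of the 10 genes all stayed higher and past the threshold in every alternative run, apart from B2m against a fold of 1.2. Without each array in turn the count was 10. With the replicate block it was 10 as well, and 5364 of all genes passed, and it changed no count by over 1.5 times. Of named single genes, Usp18 passed under the block (adjusted p = 0.0339). Deviations of same-numbered arrays correlated at 0.02, 0.05 and 0.15, and 3 of 6 arrays matched best with their own number. With so few arrays these values cannot show whether same-numbered dishes were handled together.

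Against a fold of 1.2 the counts of genes called were 1921 for all genes (5385 without that minimum), 1 for the peptidases, 0 for the constitutive 20S core, 0 for the other activators and assembly factors, and 8 for the regulators, since small changes then fail. With median centring 4 loading partners and 8 core subunits were called. With dim genes left out these counts were 2 and 2, and with trend and robust eBayes 3 and 5. At an adjusted p of 0.01 the core count was 0. With each array left out in turn it ran from 0 to 2, and the class II count from 1 to 2. Median centring lowered every log2 change by 0.107, which put the median change over all genes, 0.01 before it, below 0. Leaving out an array leaves fewer arrays, and an adjusted p of 0.01 is a stricter threshold. Beyond these differences in setting, what moved the counts was not tested. Over 127 single genes and 1881 alternatives, 71 calls were gained or lost and 0 reversed. The differences of the exchange pairs kept their sign and ran from 1.19 to 1.38 (Psmb8), 0.77 to 0.92 (Psmb9) and 0.98 to 1.09 (Psmb10). Values near the background of the array, as for the interferon genes, cannot show an absence.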
